A study of Mus musculus with 98 samples.

Results

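The genes described here are 10 mouse genes for cytokines and cytokine receptors of systemic inflammation. The ligands are Tnf, Il6, Il10, Il12b and Csf3, and the receptor chains are Csf3r, Csf2rb, Il4ra, Il10ra and Il6ra. Every probe set (a group of short probes that reads a transcript) which the platform gene table assigns to these symbols was taken, giving 17 of the 22626 probe sets left once 64 manufacturer controls were set aside. Of the 17, 16 carry 1 symbol, and 1450200_s_at is shared by Csf2rb and its close copy Csf2rb2.

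RNA was hybridised to 98 single-colour Affymetrix arrays, 64 from blood leukocytes and 34 from spleen, in 6 sets, each a model in a tissue. The models are burn injury, infusion of LPS (lipopolysaccharide, a component of the bacterial cell wall) and trauma-hemorrhage, an injury combined with blood loss. Array titles carry the code c or x, which the labels leave unexplained, so differences are given only as coded, x minus c. Blood titles also carry a letter: E stands for the injury or infusion and A for its sham, whereas every spleen array carries E. Burn blood had 5 c sham, 4 x sham, 6 c injury and 5 x injury arrays. LPS blood had 6, 5, 6 and 5 in that order, and trauma-hemorrhage blood 5, 5, 6 and 6. Burn spleen, labelled as leukocytes of the spleen, had 5 c and 6 x arrays. LPS spleen had 6 and 6, and trauma-hemorrhage spleen 6 and 5, both labelled only as spleen. The labels name no strain, age, dose or time point. Whether each array stands for its own animal is also unsaid, so a p-value here reflects only how far these samples spread, and that spread may be technical.

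Tumour necrosis factor and interleukin 6 are early signals of inflammation, released by macrophages and other leukocytes that sense microbes or tissue damage. Interleukin 10 is the counter-signal that restrains such cells. The shared p40 chain of interleukins 12 and 23, encoded by Il12b, steers T cells. Granulocyte colony-stimulating factor (Csf3) acts through Csf3r, which marks neutrophils and their precursors, and Csf2rb is the common beta chain through which GM-CSF, interleukin 3 and interleukin 5 signal. The 3 interleukin receptor chains each bind 1 of the ligands interleukin 4, 6 or 10.

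The 250 bases before the gene start are shown for the 3 ligands with an entry in the RefSeq promoter table (build GRCm38.p6), because Tnf and Il6 both passed in 1 of the spleen sets and Il12b did not pass there. In all, 6 of the 10 genes have an entry there. Sequences run 5′ to 3′ on the gene's strand. Capitals mark matches, on either strand, to a kappaB-like motif (GGNNNTTCC), a C/EBP-like motif (TTNNGNAAT), a STAT-like motif (TTCNNNGAA) and the TATA box (TATAAA). The Tnf window is chr17:35202008-35202257 on the minus strand, that of Il6 chr5:30012864-30013113 on the plus strand and that of Il12b chr11:44399813-44400062 on the plus strand.
Tnf: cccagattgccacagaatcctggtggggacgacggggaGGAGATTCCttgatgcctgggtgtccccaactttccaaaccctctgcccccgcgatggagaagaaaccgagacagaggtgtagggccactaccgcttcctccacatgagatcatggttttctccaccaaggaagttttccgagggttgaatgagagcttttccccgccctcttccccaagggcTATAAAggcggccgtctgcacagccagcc
Il6: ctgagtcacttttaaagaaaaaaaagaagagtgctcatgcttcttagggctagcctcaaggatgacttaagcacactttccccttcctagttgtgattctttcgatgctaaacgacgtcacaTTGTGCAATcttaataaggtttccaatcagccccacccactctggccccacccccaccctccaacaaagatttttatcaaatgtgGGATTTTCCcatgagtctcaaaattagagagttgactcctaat
Il12b: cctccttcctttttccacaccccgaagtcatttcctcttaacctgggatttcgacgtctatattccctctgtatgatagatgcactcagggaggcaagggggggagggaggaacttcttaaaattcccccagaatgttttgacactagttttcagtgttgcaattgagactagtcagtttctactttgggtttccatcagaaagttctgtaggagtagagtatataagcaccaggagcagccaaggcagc
In the Tnf window the kappaB-like match starts at base -212 and the TATA box at -29, counted from the gene start. In that of Il6 the C/EBP-like match starts at -128 and the kappaB-like match at -43. The Il12b window holds none of these letters. Over 32851 promoter windows of this length, the kappaB-like motif occurs in 15.7%, the C/EBP-like in 10.2%, the STAT-like in 7.02% and the TATA box in 12.4%. None of the 4 motifs overlap in these windows. Among the receptors with an entry, the Csf3r window (chr4:126024409-126024658) has a kappaB-like match at -129, and those of Il4ra and Il6ra have no match to the 4 motifs. In that same spleen set, of trauma-hemorrhage, a probe set of Il4ra and one of Il6ra passed and Csf3r did not. A match is a description of letters, not a site.

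The deposited intensities of each set end at a lowest value: 27.27 in burn blood, 32.46 in LPS blood, 28.85 in trauma-hemorrhage blood, 9.683 in burn spleen, 25.94 in LPS spleen and 11.14 in trauma-hemorrhage spleen. The number of arrays limits the precision. Leukocyte markers (Ptprc, Cd52 and Coro1a) were above that value on every array, with a mean log2 level of 9.84 to 11.19 in blood and 10.76 to 11.56 in spleen. Array titles are numbered in 2 runs in each blood set and in LPS spleen. In burn spleen and trauma-hemorrhage spleen the codes take separate stretches of 1 run, so order and code cannot be told apart there. Within each run of burn blood, LPS blood and LPS spleen the codes also take separate stretches. In trauma-hemorrhage blood they do so within each letter of a run. A difference within 1 run therefore does not separate code from order either. The actin ratio, which is log2 of the 3′ over the 5′ intensity of the manufacturer's beta-actin controls and a measure of RNA integrity, did not overlap between codes in LPS blood (c 1.485 to 1.648, x 0.938 to 1.267) or trauma-hemorrhage blood (c 1.789 to 2.277, x 0.97 to 1.651). In the other 4 sets its ranges overlapped. With the ratio as a covariate, most calls over all probe sets were lost in LPS and trauma-hemorrhage blood. The same held for the first title-number run alone in trauma-hemorrhage blood and the second alone in burn and LPS blood. A call lost in such a fit is therefore not particular to that gene. In burn blood, c arrays 4 and 5 of letter E stood apart, with a neutrophil score (mean log2 of 11 markers) of 10.98 and 10.71 against 8.28 to 9.03 in the other 4 of the group. In bulk RNA, fewer cells of a type and less RNA per cell cannot be told apart.

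**Figure D1:**
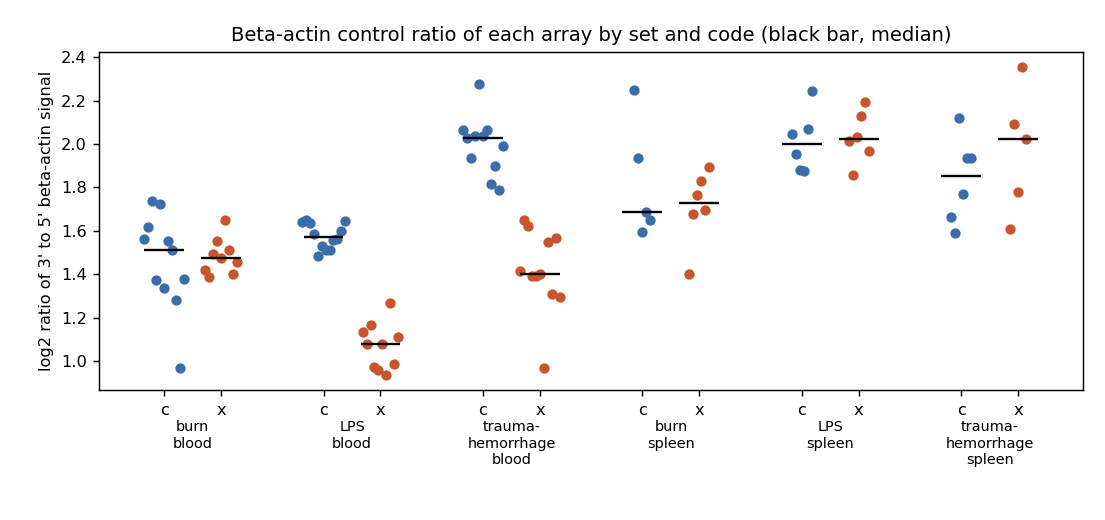
Log2 ratio of 3′ to 5′ beta-actin control signal (vertical axis) of each of the 98 arrays, by set and code, with the median as a black bar. In LPS and trauma-hemorrhage blood the x arrays lie wholly below the c arrays (0.938 to 1.267 against 1.485 to 1.648, and 0.97 to 1.651 against 1.789 to 2.277), and in the other sets the codes overlap.

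Among the ligands, the clearest differences lay in the spleen after trauma-hemorrhage, where Tnf, Il6 and Il10 were all higher in x than in c arrays. Tnf differed by 1.719-fold, Il10 by 2.177-fold and Il6 by 3.243-fold on the fitted scale. In no other set did more than 1 of these 3 genes rise. Over all 17 probe sets of the 10 genes, 4 were higher and 1 lower in that spleen set at limma's adjusted p under 0.05, where 20.2% of all probe sets passed (8.11% higher and 12.1% lower). The median difference of the 17 was 0.184 log2, against -0.002 over all probe sets tested.

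Tnf intensities in trauma-hemorrhage spleen ran from 64.43 to 95.41 in the 6 c arrays, with a median of 82.44. The 5 x arrays read 144.2, 146.4, 152.6, 145.6 and 149.4. All x arrays lay above all c arrays, and the x arrays were close to each other. The difference was 0.78 ± 0.09 log2 (SE; limma, adjusted p = 4.03e-05). Values were tested after quantile normalization within the set, as log2(intensity + 16), and fold changes are on that scale.

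Il6 was the faintest of the 3 ligands there. Of the c arrays, 3 of 6 were at the set's lowest value, 11.14, and the others read 12.32, 18.18 and 15.2. The x arrays read 64.41, 44.82, 51.11, 139.3 and 133.8, so that the x group held a high pair and a lower trio, all above the c arrays. The difference of 1.70 ± 0.23 log2 (limma, adjusted p = 0.000146) depends in size on the added 16, since the c arrays are dim: it was 2.48 with a pseudocount of 1 and 0.91 with 64, and passed in both.

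Il10, which dampens macrophage and T cell responses, read 53.1 to 69.26 in the c arrays with a median of 62.89. The x arrays read 149.5, 97.49, 166, 195.8 and 166.4. Array 2 was the lowest of the x group and still above every c array. The difference was 1.12 ± 0.14 log2 (limma, adjusted p = 5.47e-05). Tnf, Il6 and Il10 passed in this set under every alternative in which they were tested and whichever array was left out.

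**Figure D2:**
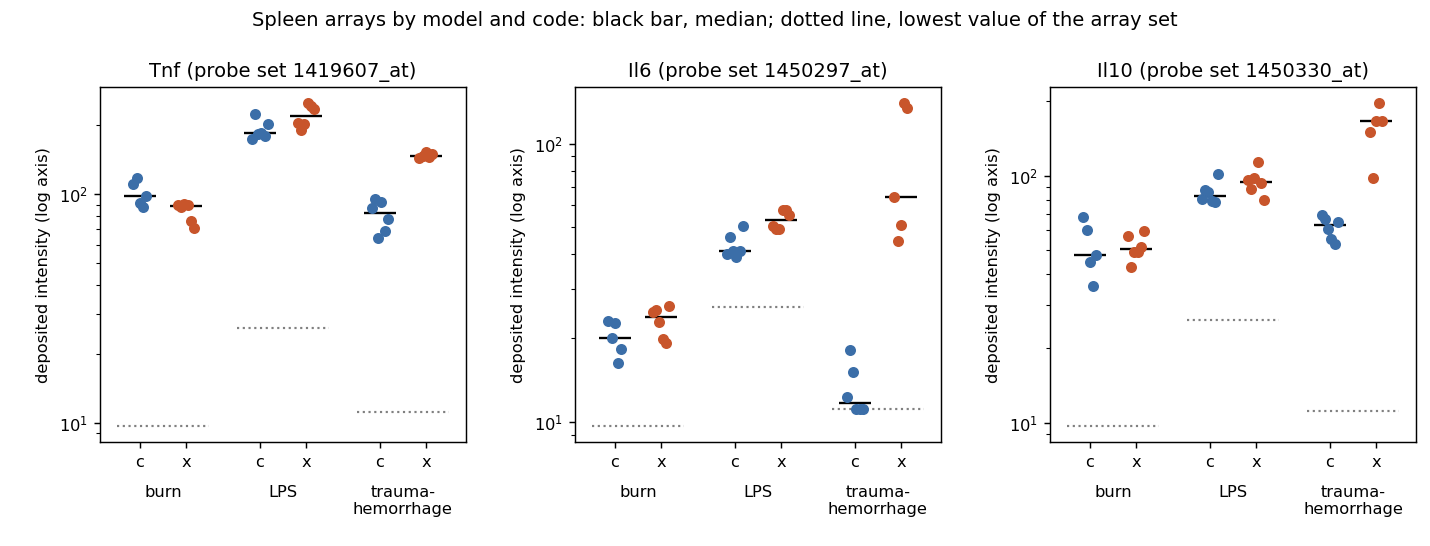
Deposited intensity (log axis) of Tnf, Il6 and Il10 on each spleen array, by model and code; black bars are medians and dotted lines the lowest value of each set. In trauma-hemorrhage spleen all 5 x arrays lie above all 6 c arrays for each gene, and for Il6 3 c arrays sit on the dotted line; levels of different sets were scaled separately and are not to be compared.

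In the same arrays the marker lists of other cell types also differed. Neutrophil markers were higher for 4 of 11 and lower for 0, with a list score of 8.16 to 9.18 in c and 8.65 to 9.57 in x arrays. T cell markers were lower for 5 of 7 (8.64 to 8.95 in c, 8.08 to 8.3 in x) and B cell markers for 5 of 7 (10.24 to 10.5 in c, 9.7 to 10.02 in x). Of 7 monocyte and macrophage markers, 1 was higher and 3 lower, and the list scores overlapped (9.05 to 9.53 against 9.21 to 9.63). None of the markers of these 4 lists was at the lowest value on all arrays of a code. Their part in the ligand differences was not tested. The actin ratio overlapped between codes in this set (1.591 to 2.121 in c, 1.609 to 2.353 in x), and with that ratio as a covariate the 3 ligands still passed.

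In LPS spleen only Il6 passed among the 17 probe sets, where 2.42% of all probe sets did (1.85% higher, 0.569% lower). The c arrays read 39.07 to 50.62 with a median of 41.27, and the x arrays 49.21 to 57.74 with a median of 53.01. The groups overlapped slightly, with 3 of 6 x arrays above the highest c array, and all 6 above the c median. The difference was 0.24 ± 0.05 log2 (adjusted p = 0.00798). Within the first title-number run it was 0.16 (adjusted p = 0.198) and within the second 0.32 (adjusted p = 0.0854), neither of which passed, and in 1 fit of all spleen groups the call was lost (adjusted p = 0.814). Tnf differed by 0.19 ± 0.08 (adjusted p = 0.42) and Il10 by 0.14 ± 0.06 (adjusted p = 0.5). Neutrophil markers were higher for 6 of 11 in this set (score 8.88 to 9.78 in c, 9.79 to 10.34 in x), and their part in the Il6 difference was not tested.

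In burn spleen none of the 5 ligands passed, and the only calls were 2 receptor probe sets, both higher, against 12.4% of all probe sets (6.88% higher, 5.47% lower). Tnf read 87.9 to 117.6 in c and 70.85 to 90.16 in x arrays, and 3 of 6 x arrays lay below all c arrays. Its difference of -0.21 ± 0.09 did not pass (adjusted p = 0.142). Il6 differed by 0.16 ± 0.07 (adjusted p = 0.188) and Il10 by 0.06 ± 0.11 (adjusted p = 0.793).

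The contrast between models was itself tested in spleen. The x minus c difference after trauma-hemorrhage exceeded that after LPS by 0.59 ± 0.12 log2 for Tnf (adjusted p = 6.57e-04), 1.46 ± 0.21 for Il6 (adjusted p = 5.01e-06) and 0.99 ± 0.15 for Il10 (adjusted p = 2.02e-05). It exceeded that after burn by 0.99 ± 0.12 (adjusted p = 1.59e-07), 1.54 ± 0.21 (adjusted p = 1.29e-06) and 1.06 ± 0.16 (adjusted p = 4.00e-06). Tnf was also lower in burn than in LPS by this measure, at -0.40 ± 0.12 (adjusted p = 0.037). Over the 17 probe sets, trauma-hemorrhage against LPS gave 4 higher and 0 lower (10.5% of all probe sets passed in either direction). Trauma-hemorrhage against burn gave 6 and 2 (19.6%), and burn against LPS 1 and 1 (6.13%). The lowest value differed between these sets (9.683 in burn, 25.94 in LPS and 11.14 in trauma-hemorrhage spleen). The same pseudocount was added in each. The Il6 difference after trauma-hemorrhage depends in size on that pseudocount, so its contrasts do too. Burn spleen is labelled as leukocytes of the spleen, the others only as spleen. In burn and trauma-hemorrhage spleen, order and code cannot be told apart. The part of these limits in the contrasts was not tested.

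In blood the ligands moved little. Tnf was bright on every blood array, at the 81st percentile of its array or above, whereas Il6 had a median rank at the 10.5th to 16th percentile. In burn blood Tnf read 314.9 to 379.7 in c and 306 to 379.2 in x arrays, with medians of 341 and 351. In LPS blood the ranges were 436.5 to 593 and 433.4 to 563. The groups overlapped almost wholly in both sets, and the differences were 0.01 ± 0.06 (adjusted p = 0.974) and 0.02 ± 0.08 (adjusted p = 0.919).

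In trauma-hemorrhage blood Tnf read 449.3 to 593.2 in the 11 c arrays (median 512) and 311.3 to 569.4 in the 11 x arrays (median 474.2). Most of the range was shared, with 3 x arrays below all c arrays and 9 below the c median. Tnf fell by 0.35 ± 0.09 log2 in x (adjusted p = 0.00362). That call rests on the scaling: with the deposited values unscaled the difference was -0.15 (adjusted p = 0.132). Within the first title-number run it was -0.20 (adjusted p = 0.426) and within the second -0.47 (adjusted p = 0.00192). With the actin ratio as a covariate it was 0.05 (adjusted p = 0.96).

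Il6 in LPS blood read 38.5 to 64.54 in c (median 53.88) and 48.11 to 82.85 in x arrays (median 61.19). Of 10 x arrays, 4 lay above all c arrays and 9 above the c median. It rose by 0.20 ± 0.06 (adjusted p = 0.0214), by 0.09 in the first run and 0.33 in the second when each was fitted alone (adjusted p = 0.482 and 0.0507), with an adjusted p of 0.248 in 1 fit of all blood groups, and by 0.16 with the actin ratio as a covariate (adjusted p = 0.663). In burn blood 4 of 11 c arrays and 0 of 9 x arrays had Il6 at the lowest value, 27.27. The c median was 28.22 and the x median 45.83, and 8 of 9 x arrays lay above the c median. The difference of 0.21 ± 0.16 did not pass (adjusted p = 0.453), but without c arrays 4 and 5 of letter E it was 0.36 (adjusted p = 0.048). In trauma-hemorrhage blood it was 0.19 ± 0.12 (adjusted p = 0.194), with x array 3 of letter E at 138.8 and the other x arrays at 40 to 60.69.

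Il10 passed in none of the 3 blood sets, with differences of 0.07 ± 0.05 in burn, 0.03 ± 0.07 in LPS and -0.03 ± 0.07 in trauma-hemorrhage blood (adjusted p = 0.478, 0.773 and 0.782). The tissues were compared over E arrays within a model. After trauma-hemorrhage the x minus c difference was lower in blood than in spleen by 1.10 ± 0.15 for Tnf (value -1.10, adjusted p = 3.46e-08), by 1.37 ± 0.24 for Il6 (value -1.37, adjusted p = 1.09e-05) and by 1.21 ± 0.15 for Il10 (value -1.21, adjusted p = 2.63e-09). Of the 17 probe sets 1 was higher and 4 lower in that test, where 26.8% of all probe sets passed. In burn 0 were higher and 1 lower (3.43%), and in LPS 0 passed (3.38% of all, with 0 of 17 here).

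The p40 gene Il12b and Csf3 gave few differences. Both Il12b probe sets were dim, with medians of 51.84 and 49.14 in burn blood and 46.73 and 26.67 in burn spleen. Probe set 1449497_at was lower in x arrays of trauma-hemorrhage blood, at 45.92 to 72.46 (median 58.28) against 65.4 to 87.73 (median 74.28). All 11 x arrays lay below the c median and 7 below the lowest c array. It fell by 0.26 ± 0.06 (adjusted p = 0.00203), by 0.19 within the first run (adjusted p = 0.199) and by 0.31 within the second (adjusted p = 0.016). With the actin ratio as a covariate the difference was -0.04 (adjusted p = 0.96). The other probe set, 1419530_at, differed there by -0.05 ± 0.04 (adjusted p = 0.287). In the spleen, 1449497_at was 0.26 ± 0.11 higher in x after trauma-hemorrhage, which did not pass (adjusted p = 0.121), although it did with the actin ratio as a covariate, at 0.34 (adjusted p = 0.0214). Csf3 passed in none of the 6 sets: its differences lay between 0.013 and 0.088 log2, and its unscaled intensities overlapped between codes in each set.

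The receptors showed their largest differences in blood. In blood, 2 of the 17 probe sets were higher in x and 0 lower in burn, 5 and 0 in LPS, and 4 and 5 in trauma-hemorrhage. Over all probe sets 14.5% passed in burn blood (5.92% higher, 8.59% lower), 22% in the LPS set (11.5% and 10.5%) and 46.4% in the trauma-hemorrhage set (18.4% and 28%). The members' shares of 11.8%, 29.4% and 52.9% are near those backgrounds.

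Csf3r, the receptor of granulocyte colony-stimulating factor, lay at the 88.3th percentile or above on every blood array. In burn blood the c arrays read 386.7 to 2589 (median 555.1) and the x arrays 1352 to 2212 (median 1699). All 9 x arrays lay above the c median, and the overlap came from c arrays 4 and 5 of letter E, at 1353 and 2589, since the other c arrays ended at 756.5. Csf3r rose by 1.25 ± 0.22 log2 in x (adjusted p = 4.52e-04), a 2.386-fold difference, and by 1.51 without that pair (adjusted p = 1.81e-09). The pair was set apart by its neutrophil score and Csf3r marks neutrophils, so leaving it out was bound to raise this difference. With the pair kept, the Csf3r difference was 1.43 ± 0.32 among A arrays (adjusted p = 0.00613) and 1.08 ± 0.29 among E arrays (adjusted p = 0.0382). The call among E arrays was lost in the unscaled values (1.14, adjusted p = 0.0704) and in 8 of 20 fits that leave out 1 array (c arrays 1, 2, 3 and 6 or x arrays 1 to 4 of letter E). Within the first title-number run it was 1.48 (adjusted p = 0.00205) and within the second 1.0045, which did not pass (adjusted p = 0.485).

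In LPS blood Csf3r read 669.9 to 1931 in c (median 918.9) and 948 to 2159 in x arrays (median 1764). The ranges overlapped, but all 10 x arrays lay above the c median. It rose by 0.73 ± 0.13 (adjusted p = 3.09e-04), within the first run by 0.81 (adjusted p = 9.47e-04) and within the second by 0.63 (adjusted p = 0.114). With the actin ratio as a covariate it was 0.39 (adjusted p = 0.589).

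In trauma-hemorrhage blood the sign was the opposite. The c arrays read 640.4 to 2236 (median 1282) and the x arrays 715.1 to 3034 (median 974.8). The ranges overlapped widely, with 8 of 11 x arrays below the c median and x arrays 2 and 4 of letter E the highest of the set, at 3034 and 2549. Csf3r fell by 0.56 ± 0.20 (adjusted p = 0.0301), but by 0.14 in the unscaled values (value -0.14, adjusted p = 0.662). It was -0.56 within the first run and -0.57 within the second (adjusted p = 0.292 and 0.0664), and -1.33 with the actin ratio as a covariate (adjusted p = 0.288). The call was also lost in 7 of 22 fits that leave out 1 array: c arrays 1, 2 and 5 of letter A, c array 4 of letter E, x arrays 3 and 4 of letter A or x array 5 of letter E. The x minus c difference is a mean over sham and injury or infusion arrays. It was lower in trauma-hemorrhage blood than in LPS blood (-1.29 ± 0.27, adjusted p = 1.08e-04) and burn blood (-1.81 ± 0.28, adjusted p = 6.67e-07).

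Neutrophil markers were higher in x for 6 of 11 in burn (list score 8.17 to 10.98 in c, 9.57 to 10 in x), for 8 of 11 in LPS (8.54 to 10.11 and 9.01 to 11.18) and for 6 of 11 in trauma-hemorrhage blood (8.75 to 10.03 and 9.81 to 11.55). In the last set 1 was lower, Mmp9, at -0.97 ± 0.26 (adjusted p = 0.00402), while the granule gene Ngp was 2.75 ± 0.29 higher (adjusted p = 6.46e-07). No neutrophil marker was at the lowest value on all arrays of a code. Their part in the Csf3r differences was not tested. In spleen Csf3r passed in none of the sets, at 0.37 ± 0.27 in burn, -0.31 ± 0.16 in LPS and -0.14 ± 0.36 in trauma-hemorrhage (adjusted p = 0.427, 0.614 and 0.844). Without c array 5 of burn spleen, which read 791.3, the first of these was 0.68 (adjusted p = 0.0244).

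Csf2rb, the common beta chain, separated the codes in trauma-hemorrhage blood. Its own probe set, 1421326_at, read 77.02 to 186.5 in the 11 c arrays (median 138.9) and 188.7 to 515.9 in the 11 x arrays (median 261.5). All x arrays lay above all c arrays, with x arrays 2 and 4 of letter E at 507.3 and 515.9 and the other x arrays at 295.1 or below. It rose by 0.98 ± 0.16 log2 (adjusted p = 5.14e-05), by 1.12 ± 0.23 among A arrays (adjusted p = 0.00138) and 0.84 ± 0.21 among E arrays (adjusted p = 0.00762). Within the first run it was 0.82 (adjusted p = 0.0875) and within the second 1.08 (adjusted p = 6.44e-04). With the actin ratio, which also separates the codes, as a covariate it was 0.23 (adjusted p = 0.86). Monocyte and macrophage markers were higher in x for 5 of 7 in this set and lower for 0 (list score 8.98 to 10.21 in c, 9.84 to 10.72 in x), none of them at the lowest value on all arrays of a code. Their part in the Csf2rb and Il4ra differences was not tested. In spleen Csf2rb passed in none of the sets, at 0.25 ± 0.09 in burn, 0.38 ± 0.16 in LPS and 0.40 ± 0.23 in trauma-hemorrhage (adjusted p = 0.114, 0.458 and 0.276). Leaving out 1 array gave a call in both injury models: without c array 5 the burn spleen difference was 0.33 (adjusted p = 0.0236), and without x array 4, the array at the lowest value, that of trauma-hemorrhage spleen was 0.64 (adjusted p = 0.0133). With all arrays and the actin ratio as a covariate the latter was 0.58 and also passed (adjusted p = 0.0342). The probe set 1421326_at was dim there, with median ranks at 20.3 in burn and 15.1 in trauma-hemorrhage spleen. The brighter shared probe set, 1450200_s_at, passed in none of the spleen sets. Its mean log2 level in c and x arrays was 7.85 and 7.78 in burn, 7.83 and 7.87 in LPS, and 7.93 and 7.77 in trauma-hemorrhage spleen.

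The probe set shared with Csf2rb2, 1450200_s_at, went the other way in the trauma-hemorrhage blood arrays. It read 417 to 968.5 in c (median 808.7) and 341.8 to 1019 in x (median 646.9), and 8 of 11 x arrays lay below the c median. It fell by 0.60 ± 0.19 (adjusted p = 0.013), by 0.33 in the unscaled values (value -0.33, adjusted p = 0.124). It was -0.57 within the first run and -0.64 within the second (adjusted p = 0.205 and 0.049), and -0.08 with the actin ratio as a covariate (adjusted p = 0.971). Csf2rb2's own probe set, 1449360_at, which is no member, moved with 1421326_at: it read 50.36 to 311.9 in c and 275.2 to 947.9 in x and rose by 1.21 ± 0.21 (adjusted p = 1.48e-04). Over the 22 arrays of the set, centred on their groups, 1421326_at and 1449360_at had a Pearson correlation of 0.87, while 1450200_s_at had one of -0.41 with each of them. These arrays share labelling and scaling. Signal of the shared probe set cannot be assigned to 1 of the genes.

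In LPS blood both Csf2rb probe sets were higher in x. The own probe set read 90.41 to 247.6 in c (median 109) and 117.4 to 280.3 in x (median 178.2), with all 10 x arrays above the c median. It rose by 0.48 ± 0.16 (adjusted p = 0.0336), a call lost in 12 of 22 fits without 1 array (c arrays 1 to 4 of letter A and 1, 3 and 4 of letter E, x arrays 1 and 5 of letter A and 1, 2 and 4 of letter E). It was higher by 0.80 in the first run (adjusted p = 1.52e-04) and 0.17 in the second (adjusted p = 0.758). The shared probe set read 322.3 to 707.2 and 577.8 to 970.4 and rose by 0.61 ± 0.15 (adjusted p = 0.00626), by 0.87 and 0.32 within the runs (adjusted p = 0.0153 and 0.348). With the actin ratio as a covariate the 2 differences were -0.39 and 0.99 (adjusted p = 0.657 and 0.22). In burn blood neither passed, at 0.11 ± 0.16 and 0.24 ± 0.11 (adjusted p = 0.753 and 0.158), although the own probe set rose by 0.31 without c arrays 4 and 5 of letter E (adjusted p = 0.00172), which read 264.6 and 209.1. Between models, x minus c of 1421326_at was higher in trauma-hemorrhage than in burn blood (0.87 ± 0.24, adjusted p = 0.00299). That of 1450200_s_at was lower in trauma-hemorrhage than in LPS blood (-1.21 ± 0.23, adjusted p = 2.14e-05) or burn blood (-0.84 ± 0.23, adjusted p = 0.00358).

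**Figure D3:**
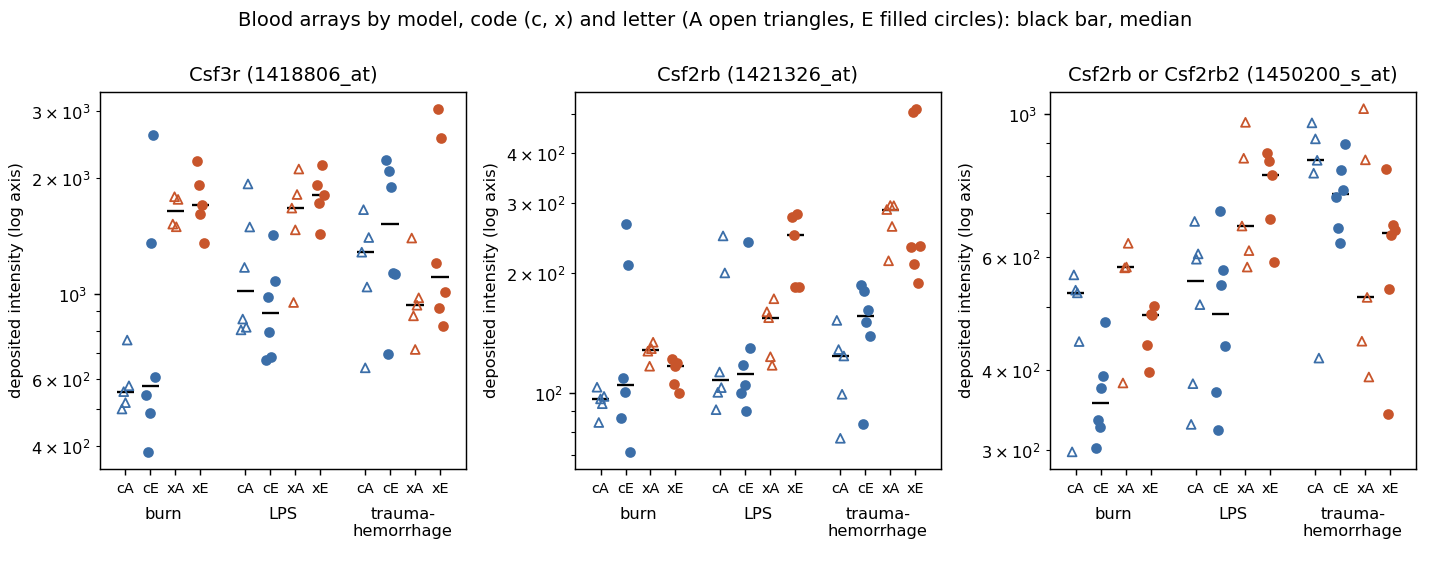
Deposited intensity (log axis) of Csf3r, Csf2rb and the probe set shared by Csf2rb and Csf2rb2 on each blood array, by model, code and letter (open triangles A, filled circles E), with medians as black bars. In trauma-hemorrhage blood all x arrays lie above all c arrays for Csf2rb (188.7 to 515.9 against 77.02 to 186.5), while the shared probe set has the lower median in x (646.9 against 808.7).

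Il4ra, the receptor chain that binds interleukin 4, was read by 3 probe sets that did not act alike. Probe set 1421034_a_at was higher in x in trauma-hemorrhage blood, at 67.47 to 181.9 (median 94.23) against 44.86 to 73.41 (median 55.84), with 10 of 11 x arrays above all c arrays. It rose by 0.70 ± 0.12 (adjusted p = 1.05e-04), 0.62 and 0.78 within the runs (adjusted p = 0.0805 and 0.00221), and by 0.17 with the actin ratio as a covariate (adjusted p = 0.871). In trauma-hemorrhage spleen it read 38.32 to 63.6 in c (median 45.76), and the x arrays read 88.98, 65.12, 78.39, 91.66 and 76.43, all above the c arrays. There it rose by 0.61 ± 0.11 (adjusted p = 0.00135), and by 0.59 ± 0.13 more than after LPS and 0.49 ± 0.14 more than after burn (adjusted p = 0.00252 and 0.0092). In LPS blood it rose by 0.18 ± 0.04 (adjusted p = 0.00295), with all 10 x arrays above the c median of 74.06. That call was lost within the second run (0.14, adjusted p = 0.247), in 1 fit of all blood groups (adjusted p = 0.201) and with the actin ratio as a covariate (-0.06, adjusted p = 0.813).

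Probe set 1447858_x_at of Il4ra was higher in x in burn spleen. The c arrays read 73.43, 68.97, 54.63, 69.75 and 72.62, and the 6 x arrays 85.25 to 102.6 with a median of 99.22. The groups did not overlap, and the difference was 0.45 ± 0.08 (adjusted p = 0.00173). It also rose in burn blood (0.20 ± 0.06, adjusted p = 0.0317, 0.26 and 0.09 within the runs, lost without c arrays 3 or 5 of letter A or 3 of letter E, or x arrays 1 of letter A or 1 or 3 of letter E) and in trauma-hemorrhage blood (0.20 ± 0.05, adjusted p = 0.00435). In the latter it was 0.15 and 0.24 within the runs (adjusted p = 0.252 and 0.0319) and -0.06 with the actin ratio as a covariate (adjusted p = 0.89). In trauma-hemorrhage spleen 2 of 6 c arrays had it at the lowest value, and its difference there was 0.19 ± 0.15 (adjusted p = 0.44). The third probe set, 1423996_a_at, was 0.12 ± 0.04 lower in trauma-hemorrhage blood (value -0.12, adjusted p = 0.0357), a call lost within both runs, with the actin ratio as a covariate and in 11 of 22 fits without 1 array (c arrays 1 and 5 of letter A and 3 and 6 of letter E, x arrays 2 to 4 of letter A and 1, 2, 3 and 6 of letter E).

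Il10ra, which binds interleukin 10, passed only through 1448731_at. In burn spleen the c arrays read 32.25, 17.34, 17.91, 35.62 and 35.07 and the 6 x arrays 34.98 to 56.6 with a median of 45.32. Of the x arrays 5 of 6 lay above all c arrays. It rose by 0.56 ± 0.14 (adjusted p = 0.0161), with values of 0.28 to 0.82 over the alternatives, and passed under every alternative in which it was tested and whichever array was left out. In trauma-hemorrhage blood it read 41.32 to 73.46 in c and 52.39 to 79.33 in x, all 11 x arrays above the c median of 47.78, and rose by 0.30 ± 0.07 (adjusted p = 0.00102), by 0.25 and 0.33 within the runs (adjusted p = 0.105 and 0.0132) and by 0.33 with the actin ratio as a covariate (adjusted p = 0.471). The brighter probe set, 1437808_x_at, differed by 0.30 ± 0.13 in burn spleen (adjusted p = 0.149) and by 0.01 ± 0.06 in trauma-hemorrhage blood (adjusted p = 0.874), and 1456173_at passed in none of the 6 sets. In burn spleen the erythroid marker score was 6.73 to 7.45 in c and 5.52 to 5.77 in x arrays, with 2 of 4 markers lower, and B cell markers were lower for 6 of 7. The monocyte and macrophage score was 9.22 to 9.69 in c and 9.2 to 9.48 in x, with Csf1r, Ccr2, Adgre1, Cd68 and Ctss lower and Cd14 higher. That of T cells was 8.02 to 8.6 and 8.58 to 8.9, with Cd3d and Cd3g higher, and that of NK cells 7.76 to 8.29 and 7.51 to 7.7. Their part in the Il4ra and Il10ra differences was not tested.

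Il6ra, which binds interleukin 6 and signals through the shared chain Il6st, passed once. In trauma-hemorrhage spleen 1452416_at read 352.2 to 728.8 in c (median 474.5), and the x arrays read 254.2, 385.9, 257.5, 328.9 and 418.2, all below the c median. It fell by 0.50 ± 0.17 (adjusted p = 0.0494), a call lost in the unscaled values (-0.52, adjusted p = 0.0604), with scaling within the tissue, a pseudocount of 64, array weights or the actin ratio as a covariate, and in 7 of 11 fits without 1 array (c arrays 1, 2, 4 and 5, x arrays 1, 3 and 4). Its other probe set, 1422270_a_at, differed by -0.08 ± 0.10 there (adjusted p = 0.657). In blood 1452416_at differed by -0.16 ± 0.16 in burn, -0.12 ± 0.18 in LPS and -0.31 ± 0.20 in trauma-hemorrhage (adjusted p = 0.59, 0.692 and 0.208).

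**Figure D4:**
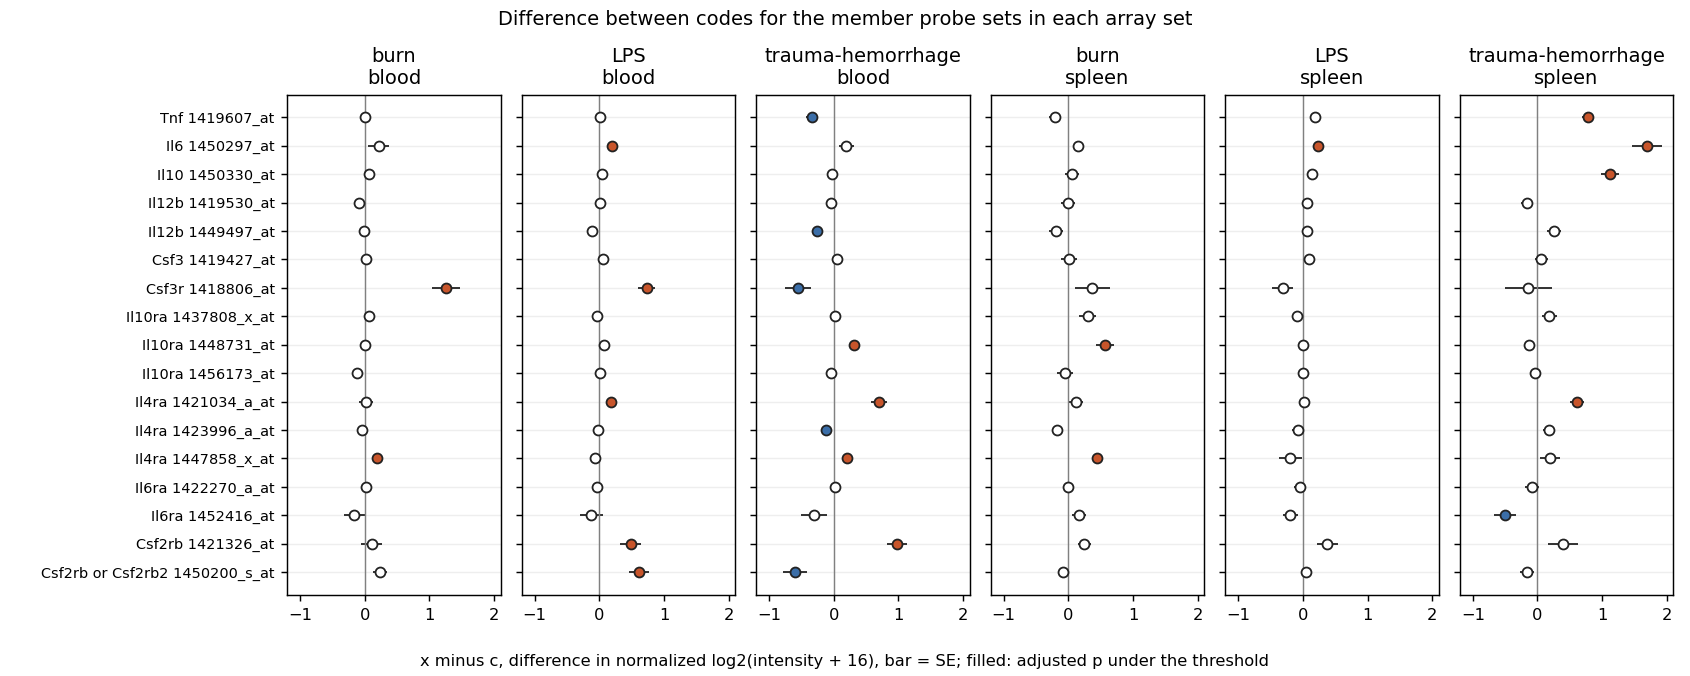
Difference between x and c in normalized log2(intensity + 16) (horizontal axis, bars SE) for the 17 probe sets (rows) in the 6 array sets (panels); filled points passed limma's adjusted p of 0.05. The longest shifts are those of Il6 and Il10 in trauma-hemorrhage spleen (1.70 and 1.12) and of Csf3r in burn blood (1.25), and Csf3r points left in trauma-hemorrhage blood (-0.56).

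The letters, labelled as injury or infusion against sham, gave no call among these genes, nor among all probe sets. In the same sets x minus c passed for 14.5%, 22% and 46.4% of all probe sets in burn, LPS and trauma-hemorrhage blood. Whether the letters mark injury and sham as labelled was not tested. Limma called 0 of the 17 probe sets in E minus A in burn, LPS and trauma-hemorrhage blood, where 0% of all probe sets passed in each (0 called, with 1327, 1129 and 2153 at an unadjusted p under 0.05). The smallest p among the 17 in burn and LPS blood were those of the shared Csf2rb probe set in burn blood (-0.25 ± 0.11, adjusted p = 0.804) and of Il10ra 1437808_x_at in LPS blood (0.11 ± 0.05, adjusted p = 0.959). Split by letter, x minus c passed for 1 higher and 0 lower among A arrays of burn blood (background 11.3%) and for 1 and 0 among E arrays (4.3%, or 543 to 1972 probe sets against 939 when 1 array was left out). In LPS blood 0 passed among A arrays (9.8%) and 4 were higher and 1 lower among E arrays (11.2%), the latter Il12b 1449497_at at -0.26 ± 0.08, lost within both runs, with the actin covariate and in 7 of 22 fits without 1 array. In trauma-hemorrhage blood 2 were higher and 4 lower among A arrays (31.3%), and 3 and 1 among E arrays (24.2%). The difference between letters was tested as an interaction and passed for 0 of 17 in each set, where 0.00458% of all probe sets passed in burn blood and 0% in the others. In LPS blood the interaction of Il6 was 0.31 ± 0.12 (adjusted p = 0.624) and that of Csf2rb 0.68 ± 0.32 (adjusted p = 0.713), so a dependence on the letter was not shown.

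Between models in blood, 1 of the 17 probe sets was higher and 0 lower for burn against LPS (17.5% of all probe sets passed), 3 and 3 for trauma-hemorrhage against LPS (41.8%), and 3 and 4 for trauma-hemorrhage against burn (37.3%). Here the model differences share their arrays, so each comparison stands on its own. The chains highest for trauma-hemorrhage against burn were Csf2rb and Il4ra 1421034_a_at (0.68 ± 0.14, adjusted p = 1.57e-04). That Il4ra probe set had a median rank at the 89.5th percentile of its arrays in burn blood and the 27.2nd in trauma-hemorrhage blood. Il10ra 1448731_at lay at 59.3 and 19.5. For these probe sets a brighter and a dimmer signal are compared, so the difference between models is not like for like.

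Other genes of the pathway, from lists of 25 further ligands, 26 receptor chains and 22 signalling and target genes, were counted beside the members. Each such gene is read by its brightest probe set, so its list's share is not drawn like the share over all probe sets. In trauma-hemorrhage spleen 10 of 23 measured ligands rose and 2 fell (52.2% passed, against 20.2% of all probe sets). Of those that rose, by smallest p, Tnfsf9, a ligand that costimulates T cells, rose by 1.32 ± 0.15 (adjusted p = 2.54e-05), Il1b by 1.53 ± 0.18 (adjusted p = 5.38e-05), Il1a by 1.05 ± 0.13 (adjusted p = 7.92e-05) and Il15 by 1.35 ± 0.20 (adjusted p = 2.85e-04). Interferon gamma (Ifng), singled out after its value was seen, rose by 2.58 ± 0.56 (adjusted p = 0.0049). Ltb, made by lymphocytes, fell by 1.07 ± 0.10 (adjusted p = 9.07e-06). In burn spleen 2 rose and 6 fell, with Ltb at -0.51 ± 0.07, and in LPS spleen 2 rose and 0 fell (34.8% and 8.7%, against 12.4% and 2.42% of all). In blood the counts were 2 and 3 in burn, 7 and 0 in LPS, and 3 and 7 in trauma-hemorrhage. These shares of 21.7%, 30.4% and 43.5% stand beside 14.5%, 22% and 46.4% of all probe sets. The smallest p were those of Ltb in burn blood (-1.61 ± 0.15, adjusted p = 3.95e-07), Tgfb1 in LPS blood (0.43 ± 0.06, adjusted p = 3.81e-05) and Ebi3 in trauma-hemorrhage blood (0.89 ± 0.11, adjusted p = 5.72e-06). Directions varied: Ltb was 0.51 ± 0.08 in LPS blood (adjusted p = 5.66e-05) and -0.05 ± 0.16 in trauma-hemorrhage blood (adjusted p = 0.832). Tgfb1 was -0.42 ± 0.06 in burn blood (adjusted p = 3.86e-05) and 0.34 ± 0.09 in trauma-hemorrhage blood (adjusted p = 0.00316). Il1b, singled out after its values were seen, rose by 0.88 ± 0.29 in burn blood (adjusted p = 0.0485) and by 0.84 ± 0.26 in LPS blood (adjusted p = 0.0253). In trauma-hemorrhage blood Il1b differed by -0.22 ± 0.27, which did not pass (adjusted p = 0.523).

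Of 25 measured receptor chains, 5 rose and 5 fell in trauma-hemorrhage spleen, 3 and 3 in burn spleen, and 4 and 0 in LPS spleen (40%, 24% and 16% passed). In blood 2 rose and 2 fell in burn, 4 and 3 in LPS, and 9 and 4 in trauma-hemorrhage, which is 16%, 28% and 52%, near the shares of all probe sets. Tnfrsf1b, a receptor of tumour necrosis factor, had the smallest p in both trauma-hemorrhage spleen (1.17 ± 0.12, adjusted p = 1.04e-05) and LPS spleen (0.69 ± 0.13, adjusted p = 0.0071). Il6st, the signalling chain that partners Il6ra, had the smallest p in trauma-hemorrhage blood, where it rose by 1.31 ± 0.13 (adjusted p = 3.72e-07). It also rose in the spleen of each model, by 0.38 ± 0.08 in burn, 0.57 ± 0.13 in LPS and 0.68 ± 0.13 in trauma-hemorrhage (adjusted p = 0.00626, 0.0378 and 0.00257). These spleen values are given for that role and were chosen after they were seen. Il10rb, the partner of Il10ra, named for that role after its values were seen, rose by 0.33 ± 0.10 in trauma-hemorrhage blood and fell by 0.28 ± 0.07 in the spleen of that model and by 0.46 ± 0.10 in burn spleen (adjusted p = 0.00885, 0.00923 and 0.00683).

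Of 21 measured signalling and target genes, 10 rose and 3 fell in trauma-hemorrhage spleen (61.9% passed). In the other sets the counts were 6 and 3 in burn spleen, 4 and 0 in LPS spleen, 6 and 3 in burn blood, 11 and 3 in trauma-hemorrhage blood, and 7 and 1 in LPS blood. Those shares, in the same order, were 42.9%, 19%, 42.9%, 66.7% and 38.1%, each above the share of all probe sets in its set. Socs3 and Stat3 are given because they passed in all 3 spleen sets, which was known when they were chosen. Socs3, an inhibitor induced by interleukin 6 and 10 signalling, rose in all 3 spleen sets, by 1.33 ± 0.19 in burn, 1.52 ± 0.19 in LPS and 1.58 ± 0.17 in trauma-hemorrhage (adjusted p = 5.4e-04, 3.74e-04 and 2.15e-05). Stat3, the transcription factor of both cytokines, rose in those sets by 0.37 ± 0.08, 0.87 ± 0.10 and 1.35 ± 0.09 (adjusted p = 0.00709, 1.43e-04 and 5.59e-07). Bcl3, an NF-kB family member, rose by 1.62 ± 0.14 in LPS spleen, the smallest p of the list there, and by 1.80 ± 0.14 in trauma-hemorrhage spleen (adjusted p = 2.19e-05 and 1.27e-06). Median differences of the ligand, receptor and signalling lists in trauma-hemorrhage spleen were 0.14, 0.052 and 0.144 log2, beside -0.002 over all probe sets.

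The genes whose pattern was most like that of a member were sought over the 64 blood arrays, with each set centred on its mean. The measure is Pearson's correlation, given as a description, since the arrays of a set share code, scaling and RNA integrity. Csf3r was most like Msrb1 (0.932), Gsr (0.912) and Mmp9 (0.889). Csf2rb was most like Mettl9 (0.911), Casp4 (0.911) and Ppp1r15b (0.906). Tnf was most like Plekhg5 (0.897), B3gnt3 (0.891) and Creb3l3 (0.881). Il6, above the lowest value on 60 of 64 arrays, was most like Phlda1 (0.625), Il1a (0.613) and Nfkbiz (0.599). For Il10, Il12b, Csf3, Il10ra, Il4ra and Il6ra the highest correlations were 0.561 to 0.685.

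**Figure D5:**
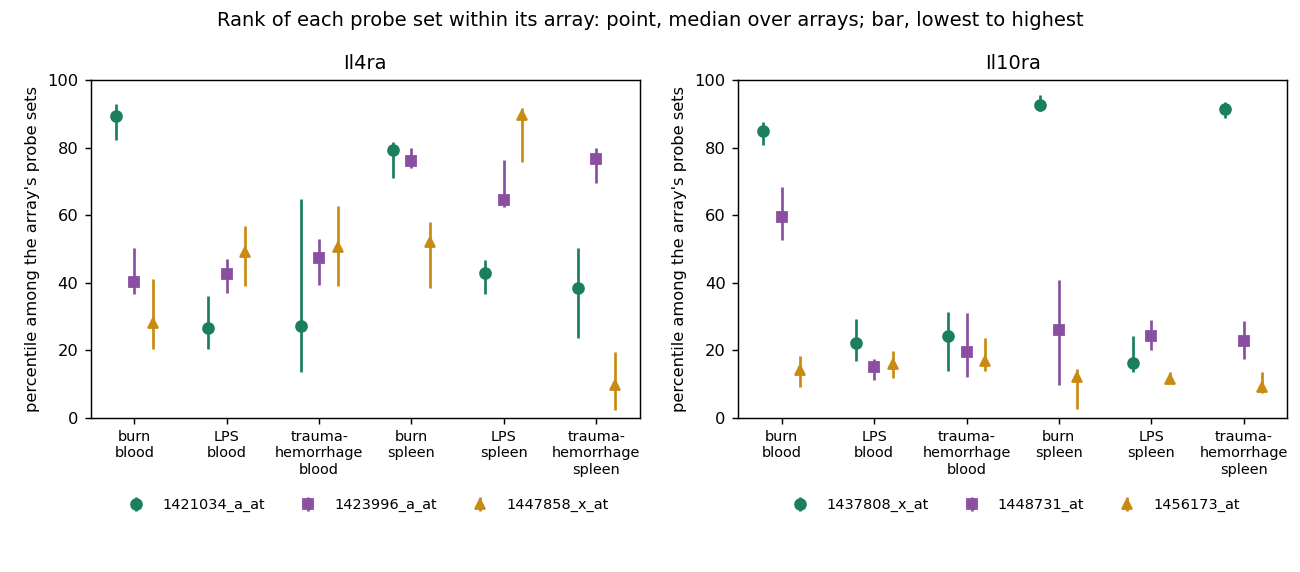
Percentile of each Il4ra and Il10ra probe set among all probe sets of its own array (vertical axis), by array set; points are medians over arrays and bars run from the lowest to the highest. The Il10ra probe set 1437808_x_at has a median at the 84.8th percentile in burn blood and at the 22nd in LPS blood, and 1456173_at stays below the 24th on every array.

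Probe sets of the same gene also ranked differently within an array. Among Il10ra probe sets, 1437808_x_at had a median rank at the 92.7th percentile in burn spleen, 16.3rd in LPS spleen and 91.5th in trauma-hemorrhage spleen, while 1456173_at lay at 12.1, 11.5 and 9.09. For Il4ra, 1447858_x_at lay at the 52.1st, 89.6th and 9.58th percentile in the same sets, and 1423996_a_at at 76, 64.6 and 76.5. By contrast, Csf3r had medians of 97 to 97.2 in the 3 blood sets and Il6ra 1452416_at of 74.7 to 77.3. A rank is unchanged by a rescaling that keeps the order of the probe sets within an array. Other steps in deriving the intensities could change it. Their part in the rank differences between sets was not tested.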

How the data were processed

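The files hold the intensity of each probe set on each of 98 arrays, on a linear scale, as deposited. The authors' steps to derive and scale them are not given in the sources used here. GEO's platform gene table, whose symbols can be old, names 1 gene for 20380 probe sets and more than 1 for 691, and leaves 1555 unnamed. Titles and descriptions put the samples into 18 groups, by model, tissue, letter and code. The lowest value differs between the 6 sets, so arrays were quantile normalized within a set, and levels of different sets were not compared. Each probe set was tested by itself as log2(intensity + 16) in R 4.3.3 by limma 3.58.1 (a linear model, contrasts and eBayes with a mean-variance trend), 1 term per group, two-sided, with Benjamini-Hochberg adjustment over all probe sets tested and a threshold of 0.05. Only probe sets at the set's lowest value on every array were left out, and all 17 members were tested throughout. In blood, x minus c is the mean over both letters. Differences between models or tissues are contrasts in 1 fit of the groups concerned.

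Where a gene has several probe sets, the one of highest mean log2 value stands for it, and intensities are also given for other probe sets that passed. The genes most like a member are the 3 with the highest correlation. Pathway genes that passed were named smallest p first, apart from those said to be chosen after their values were seen. The members, gene lists, tests and alternatives were chosen with earlier results of these data known. The steps were tested on simulated data. Alternatives were pseudocounts of 1 and 64, unscaled values, scaling within a tissue, a filter at the 30th percentile, 1 probe set per gene, array weights, robust variance, larger fits, the title-number runs as a block or each alone, the actin ratio as a covariate, the burn pair left out, and each array left out in turn. Promoter letters are from RefSeq.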

Additional observations from a re-analysis of the deposited data

Results flagged for a closer look

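In 9 of 180 groups of 4 to 6 arrays, 1 array lay far from the others of its group; chance alone gives about 1 in 20 groups. In trauma-hemorrhage blood, x array 3 of letter E was the highest of its group for Il6, at 138.8 against 42.31 to 60.69, and for Il10, at 204.2 against 110.5 to 144.3. In trauma-hemorrhage spleen, x array 2 was the lowest for Il10, at 97.49 against 149.5 to 195.8. For Il12b 1419530_at, x array 1 of letter A in burn blood read 43.16 against 51.03 to 53.53, and x array 2 of letter E in LPS blood 52.66 against 62.72 to 66.14. Csf3 in LPS spleen read 128.9 on x array 5 against 105.2 to 117.1. Il4ra 1423996_a_at in burn blood read 122.2 on c array 4 of letter E against 97.51 to 103.6. For Csf2rb, c array 5 of letter E in LPS blood read 239.6 against 90.41 to 129.8, and c array 2 of letter E in trauma-hemorrhage blood 83.5 against 138.9 to 186.5.

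The x minus c difference itself differed between models or tissues in 34 of 153 tests over the 17 probe sets (limma, adjusted p under 0.05). Comparisons that share a model share its arrays. Some Il4ra and Il10ra probe sets ranked differently between sets, as described above, so their differences between models are not like for like. In blood, burn exceeded LPS for Il4ra 1447858_x_at by 0.27. Trauma-hemorrhage minus LPS was -0.36 for Tnf, -1.29 for Csf3r, 0.24 for Il10ra 1448731_at, 0.52 for Il4ra 1421034_a_at, 0.27 for Il4ra 1447858_x_at and -1.21 for the probe set shared by Csf2rb and Csf2rb2. Trauma-hemorrhage minus burn was -0.35 for Tnf, -0.24 for Il12b 1449497_at, -1.81 for Csf3r, 0.31 for Il10ra 1448731_at, 0.68 for Il4ra 1421034_a_at, 0.87 for Csf2rb and -0.84 for the shared probe set.

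In spleen, burn minus LPS was -0.40 for Tnf and 0.57 for Il10ra 1448731_at. Trauma-hemorrhage minus LPS was 0.59 for Tnf, 1.46 for Il6, 0.99 for Il10 and 0.59 for Il4ra 1421034_a_at. Trauma-hemorrhage minus burn was 0.99 for Tnf, 1.54 for Il6, 1.06 for Il10, 0.45 for Il12b 1449497_at, -0.69 for Il10ra 1448731_at, 0.49 for Il4ra 1421034_a_at, 0.36 for Il4ra 1423996_a_at and -0.66 for Il6ra 1452416_at. Between tissues, blood minus spleen was -0.65 for Il10ra 1448731_at after burn. After trauma-hemorrhage it was -1.10 for Tnf, -1.37 for Il6, -1.21 for Il10, -0.50 for Il12b 1449497_at and 0.49 for Il10ra 1448731_at. The limits given above for contrasts between spleen sets hold here too, and no explanation of these differences was tested.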

How the results depend on the processing

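Of 204 x minus c results over the 17 probe sets, 41 passed. Of these, 6 passed under every alternative that tested them and 35 were lost under at least 1. Another 22 were gained under an alternative other than a left-out array. Counts of members that passed moved as follows. With the 30th-percentile filter LPS blood went from 5 to 3, its A arrays from 0 to 1 and E arrays from 5 to 2, LPS spleen from 1 to 0, burn blood from 2 to 1, burn spleen from 2 to 1 and E arrays of trauma-hemorrhage blood from 4 to 2. With 1 probe set per gene, burn blood gave 1, burn spleen 0, LPS blood E 3, trauma-hemorrhage blood 5 (from 9) and its E arrays 1. In 1 fit per tissue LPS blood gave 3, its E arrays 3, LPS spleen 0 and trauma-hemorrhage blood E 7. Unscaled values left 0 in burn blood E (from 1). Array weights, robust variance, the run as a block and the first run alone each gave 1 in LPS blood A. The first run alone gave 3 in LPS blood E, 2 in burn blood E, and 0 in LPS spleen and in trauma-hemorrhage blood, its A (from 6) and its E arrays. The second run alone gave 0 in LPS blood, LPS blood E, LPS spleen, burn blood and its A and E arrays. The actin covariate left 0 in LPS blood, LPS blood E, and trauma-hemorrhage blood with its A and E arrays. Without burn c arrays 4 and 5 of letter E, burn blood gave 4 and its A arrays 2. Leaving out 1 array gave 1 to 3 in burn blood, 0 to 1 in its E arrays, 2 to 4 in burn spleen, 0 to 1 in LPS blood A, 3 to 6 in LPS blood E and 3 to 7 in trauma-hemorrhage blood A. The actin covariate also turned 6 signs: Csf2rb in LPS blood (-0.39) and its E arrays (-0.0158), Il4ra 1421034_a_at in LPS blood (-0.0555), Il4ra 1447858_x_at in trauma-hemorrhage blood (-0.0636), and Tnf there (0.0508) and in its A arrays (0.0195). The causes were not tested.

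Over all probe sets, counts moved by over 1.5 times with array weights (burn blood 4977 from 3170, A 3809 from 2477, E 2103 from 939; LPS blood E 5004 from 2438), in the first run alone (burn blood 1789, A 1148, E 581; trauma-hemorrhage blood 1610 from 10122, A 220, E 61), in the second (burn blood 46, A 6, E 6; LPS blood 599 from 4787, A 120, E 27; trauma-hemorrhage blood A 3981 from 6830; LPS spleen 230 from 532), with the actin covariate (burn blood E 1828; LPS blood 1817, E 1367; trauma-hemorrhage blood 16, A 45, E 1) without the burn pair (burn blood E 2752), and without 1 array in burn blood E, to 543 without x array 1 and 1972 without c array 5 of letter E. No paired analysis was possible because the replicate numbers only name samples. The size of the Il6 difference in trauma-hemorrhage spleen, where 3 of 6 c arrays were at the lowest value, depends on the pseudocount.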

Other observations

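Over all 22626 probe sets, the median rank within an array differed by more than 50 percentile points between burn and LPS blood for 367 (1.62%), between trauma-hemorrhage and LPS blood for 394 (1.74%) and between trauma-hemorrhage and burn blood for 481 (2.13%). In spleen the counts were 745 (3.29%) for burn and LPS, 729 (3.22%) for trauma-hemorrhage and LPS, and 285 (1.26%) for trauma-hemorrhage and burn. Of the 17 cytokine and receptor probe sets, 2, 0 and 2 differed so far in the blood comparisons and 1, 2 and 0 in those of spleen. Il4ra 1421034_a_at had a median rank at the 89.5th percentile in burn blood, 26.4 in LPS blood and 27.2 in trauma-hemorrhage blood.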
